A study of Arabidopsis thaliana with 20 samples.

Results

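The transcript levels of 10 intracellular NLR (nucleotide-binding, leucine-rich-repeat) immune receptor genes of Arabidopsis thaliana were followed through 6 groups of plants from a PPD3 overexpression experiment. The genes were taken by locus from a list of named receptors, with earlier results of these data known: ADR1, ADR1-L1 and ADR1-L2 (3 helper receptors), SNC1, RPS4 and RRS1 (3 sensors with an N-terminal TIR domain), and RPS2, RPM1, RPP8 and ZAR1 (4 sensors with an N-terminal coiled coil, CC). All 10 were among the 34262 genes counted in each sample, and all 10 passed the filter on low counts that left 21703 genes for testing. NLR proteins are the resistance proteins of the plant cell interior. A sensor recognises a pathogen effector or its action on a guarded host protein, the central nucleotide-binding domain switches state, and the receptor starts the hypersensitive response. Many sensors need a helper NLR. The ADR1 helpers act with the lipase-like proteins EDS1 and PAD4 and promote salicylic acid accumulation, and because an overactive NLR stunts the plant, as the gain-of-function allele of SNC1 does, NLR transcript and protein levels are tightly held.

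RNA of the aboveground tissue of bolting plants was sequenced from 20 samples with the source name Col-0. T+ plants carry a PPD3 overexpression transgene and were sampled as dwarf (3 samples) and as normal-looking plants (3 samples). Gen1 plants, siblings of T+ and labelled as having lost the transgene, were dwarf (3 samples), and Gen2, the progeny of Gen1, was sampled as dwarf (5 samples) and as large plants (3 samples). The 3 wild-type (WT) samples carry no transgene and have no transgenic parent in the labels, although 1 of them, WT 3, is given as ecotype Col-1. PPD3 is a PsbP-domain protein of the plastid. No source used here states the promoter of the transgene, how many independent lines were made, or whether plants were pooled. Each sample is labelled as a biological replicate, and the p-values below measure only the spread between these samples.

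Levels are in CPM, counts scaled to library size with edgeR's TMM factors, and a gene is called where its edgeR p, adjusted over all 21703 tested genes, is under 0.05. The samples held 45728485 to 117753467 gene counts, and a single NLR gene had between 1141 and 48822 counts in a sample, so counting error was at most 2.96% and replicate spread is the larger part of the error. AT1G76450, the PsbP-family locus taken as the overexpressed gene, was at 381 to 812 CPM in the 6 T+ samples and at 92.4 to 148 CPM in the other 14. The T+ samples were thus the high ones, as labelled. The sample T+ normal 1 stood apart from the rest on the first principal components, and it had the highest of the 20 levels for 5 of the 10 NLR genes. WT 1 had the lowest of the 20 levels for 6 of the 10, so the differences described for the helpers, RRS1, RPM1 and ZAR1 against WT or T+ normal are also given without one of these samples. In bulk tissue, fewer cells of a type and less RNA per cell cannot be told apart.

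What all 10 genes share is the nucleotide-binding domain with its P-loop. In the 8 genes whose stretch is given here, the P-loop was found once in the coding sequence, as codons for a glycine, any 4 residues, then glycine, lysine and serine or threonine. The stretches are shown in the coding direction to show a motif that the helpers and both sensor classes have in common, and that many other nucleotide-binding proteins also carry, with the last 3 codons (glycine, lysine, serine or threonine) in capitals, from the RefSeq TAIR10.1 genome.
ADR1 (chr1:12169668-12169691, plus strand): ggaatgagcggttcaGGGAAAACC
ADR1-L1 (chr4:16053364-16053387, minus strand): ggaatgggcggtgttGGTAAAACC
ADR1-L2 (chr5:1361366-1361389, plus strand): gggatgagtggttcaGGGAAAACC
SNC1 (chr4:9504722-9504745, minus strand): ggacaatcagggattGGTAAGAGT
RPS2 (chr4:13225139-13225162, plus strand): ggacctggtggggttGGGAAGACA
RPM1 (chr3:2228404-2228427, minus strand): gggatgggcggttcaGGGAAAACT
RPP8 (chr5:17466062-17466085, minus strand): gggatgggcggtattGGTAAAACC
ZAR1 (chr3:18936691-18936714, plus strand): gggatgggagggctaGGTAAAACT
The coding sequence otherwise ran from 787 codons in ADR1 to 1437 codons in SNC1.

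Per length of exon, the 10 genes covered a wide range of levels. ZAR1, the CC sensor that assembles into the ring called the resistosome, had the highest level, 105 CPM per kb as the mean of the 6 group means. It was followed by SNC1 at 79.8 and by RPP8, a receptor of downy mildew resistance, at 65.2 CPM per kb. ADR1-L1 (34.5) and ADR1-L2 (26.5) lay in the middle, and RPS4 (12.8), RPS2 (12.4), ADR1 (9.95), RRS1 (8.29) and RPM1 (6.33 CPM per kb) formed the low end. Among neighbours in this order, the ranges over the 20 samples stood apart only between ADR1-L2 and RPS4 (17.5 to 36.7 against 8.04 to 16.5 CPM per kb). The first 4 neighbouring pairs overlapped in range, but the higher gene was higher in 20 of 20 samples in each. RPS4 and RPS2 could not be ordered, since RPS4 was higher in 12 of 20 samples. RPS2 was above ADR1 in 17, ADR1 above RRS1 in 16, and RRS1 above RPM1 in 19 of 20 samples.

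**Figure D1:**
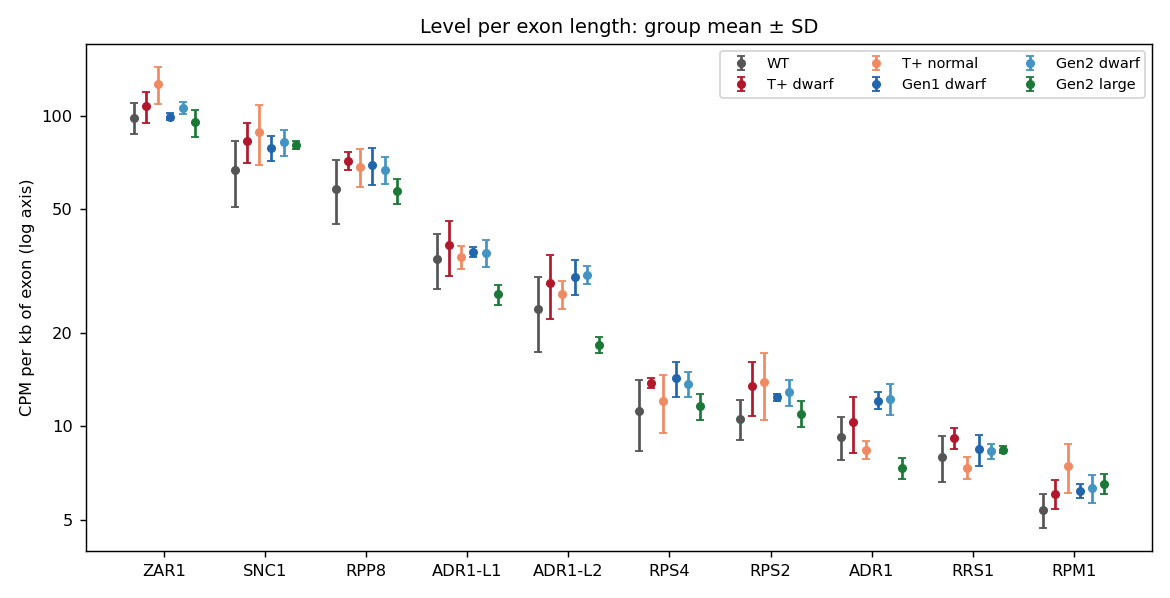
Level per exon length (CPM per kb of exon, log axis) of each gene as group mean ± SD, with the 6 groups in colours and genes ordered by the mean over groups. ZAR1 lies between 95.0 and 126 CPM per kb and RPM1 between 5.4 and 7.46, and the Gen2 large group is the lowest for all 3 ADR1 helpers.

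The 3 helper genes differed between dwarf and large Gen2 plants, and they were the only ones of the 10 to be called there. ADR1 (AT1G33560, chr1:12168768-12172119, plus strand, 5 exons) was at 39.8, 32.7, 36.7, 40.3 and 31 CPM in the 5 Gen2 dwarf samples and at 20.7, 20.4 and 23.5 CPM in the 3 Gen2 large samples. ADR1-L2 (AT5G04720, chr5:1360589-1363907, plus strand, 5 exons) was at 82.4, 86.6, 93.3, 93.5 and 81.9 CPM in Gen2 dwarf and at 50.6, 49.7 and 55.4 CPM in Gen2 large. ADR1-L1 (AT4G33300, chr4:16050456-16056526, minus strand, 7 exons) was at 132, 152, 161, 171 and 141 CPM in Gen2 dwarf and at 102, 113 and 119 CPM in Gen2 large. For each helper, every dwarf sample was above every large sample. The same held for RPS2 and for 13.9% of all tested genes. ADR1 was 1.68-fold higher in Gen2 dwarf (log2 difference 0.75 ± 0.13 SE, edgeR adjusted p = 0.00126), and ADR1-L2 was 1.69-fold higher (0.75 ± 0.15, edgeR adjusted p = 0.00396). ADR1-L1 was 1.36-fold higher (0.44 ± 0.13, edgeR adjusted p = 0.0362).

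Against this count of 3 called of 10, 13.5% of all tested genes were called in the same comparison, and 8.67% of all tested genes were called as higher in the dwarf samples. The calls of ADR1 and ADR1-L2 held under all 13 alternative settings, with an edgeR or DESeq2 adjusted p of at most 0.0151 for ADR1 and 0.0281 for ADR1-L2. The call of ADR1-L1 lay near the threshold and held in only 2 of the 8 fits that left out 1 sample. The log2 difference of ADR1-L1 ran from 0.373 to 0.491 over the 13 settings. Its edgeR adjusted p was 0.0577, 0.0671 or 0.096 without Gen2 dwarf 2, 3 or 4, and 0.163, 0.102 or 0.0759 without Gen2 large 1, 2 or 3. ADR1-L1 also overlaps 3 genes of the opposite strand, and the TruSeq RNA kit named in the labels does not mark strand, so its counts are less certain than those of the other helpers, which overlap no annotated gene. Of its 100-base exon windows, 1.35% occur elsewhere in the genome. The summed level of the 8 leaf markers was 12300 to 15000 CPM in Gen2 dwarf and 16500 to 25600 CPM in Gen2 large, and 4 of the 8 were called as lower in the dwarf samples. The summed level of 10 floral organ markers was at most 3.53 CPM and that of 10 root markers at most 1.15 CPM in these groups, near 0 beside the leaf markers. One floral marker, AG, was called there as lower in the dwarf samples (log2 difference -1.48). The part of leaf marker level in the helper result was not tested.

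**Figure D2:**
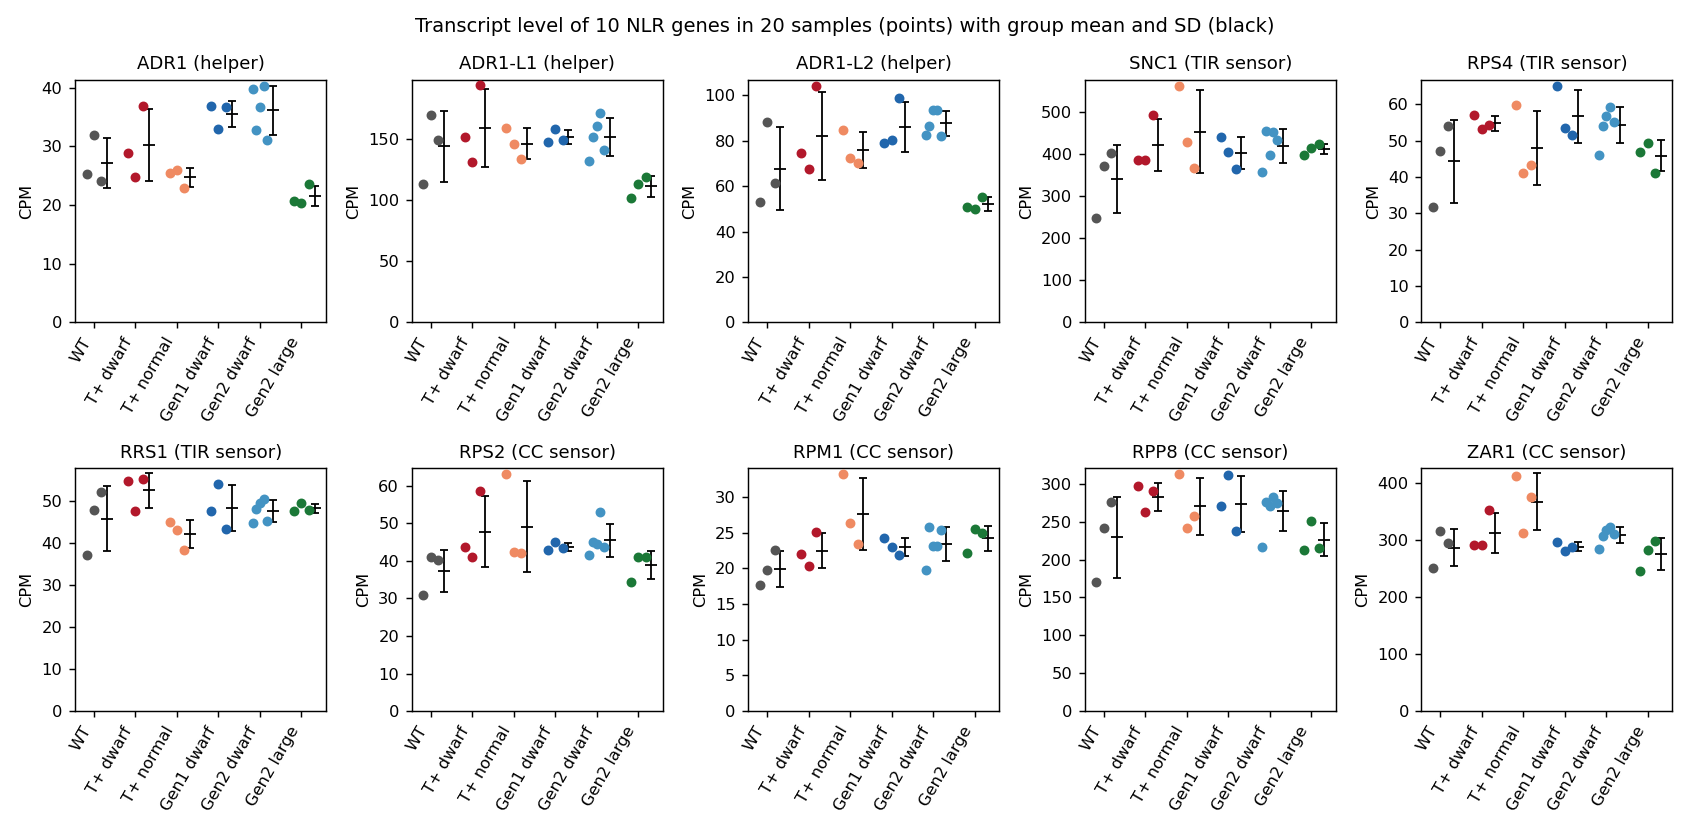
CPM of the 10 genes in each of the 20 samples (points, coloured by group), with the group mean and SD in black, each panel from 0. The 3 Gen2 large samples lie below all 5 Gen2 dwarf samples for ADR1, ADR1-L1, ADR1-L2 and RPS2. For SNC1, RPS4, RRS1, RPM1, RPP8 and ZAR1 these groups overlap.

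The other groups place these helper levels. ADR1 was at 36.9, 33 and 36.7 CPM in Gen1 dwarf, the same range as in Gen2 dwarf, and at 28.8, 24.8 and 36.9 CPM in T+ dwarf. It was at 25.4, 25.9 and 22.9 CPM in T+ normal and at 25.2, 32 and 24.1 CPM in WT. ADR1 in Gen1 dwarf thus lay above all samples of T+ normal, WT and Gen2 large, while T+ dwarf overlapped T+ normal and WT. ADR1-L2 was at 78.9, 80.3 and 98.7 CPM in Gen1 dwarf, at 74.4, 67.6 and 104 CPM in T+ dwarf, at 84.7, 72.2 and 70.2 CPM in T+ normal and at 53.1, 88.3 and 61.5 CPM in WT. For ADR1-L2, the WT samples reached from near the Gen2 large level into the dwarf range. ADR1-L1 was at 148, 158 and 149 CPM in Gen1 dwarf, at 152, 131 and 194 CPM in T+ dwarf, at 159, 146 and 134 CPM in T+ normal and at 113, 170 and 149 CPM in WT. These ranges overlap each other, and that of WT alone reaches into the Gen2 large range. The summed level of the 3 helpers was 173.3 to 197.9 CPM in Gen2 large and 191.3 to 334.9 CPM in the other 17 samples, so only WT 1 reached into the Gen2 large range.

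The mean of the 3 dwarf groups was set against the mean of the 3 others, which include WT and both non-dwarf groups. There, 3 of the 10 genes were called, a share near the 32.8% of all tested genes. All 3 were higher in dwarf plants, beside 17.8% of all tested genes called as higher. For each of the 3, the samples of the dwarf groups and of the other groups overlapped. ADR1 was 1.39-fold higher (log2 difference 0.48 ± 0.08 SE, edgeR adjusted p = 0.000197) and ADR1-L2 was 1.32-fold higher (0.40 ± 0.09, edgeR adjusted p = 0.00278), both under all 24 alternatives. RPS4 was 1.2-fold higher (0.26 ± 0.09, edgeR adjusted p = 0.0355), and ADR1-L1 missed the threshold (0.21 ± 0.08, edgeR adjusted p = 0.0561). Leaving out 1 of 10 libraries ended the RPS4 call, with an edgeR adjusted p of 0.0708, 0.0514 and 0.0569 without T+ dwarf 1, 2 and 3, 0.0978 and 0.0921 without T+ normal 2 and 3, 0.0919 without Gen1 dwarf 1, 0.0603 without Gen2 dwarf 4, 0.0581 and 0.0738 without Gen2 large 1 and 3, and 0.089 without WT 1. ADR1-L1 passed without T+ dwarf 2 (edgeR adjusted p = 0.0306), T+ normal 1 (0.0488) or WT 2 (0.0257), and RPS2 passed without T+ normal 1 (0.0464). In the test of any difference among the 6 groups, ADR1 (edgeR adjusted p = 0.00189) and ADR1-L2 (0.0143) were called. These are 2 of the 10 genes, a share near the 21.2% of all tested genes. Without Gen2 large 1 or Gen2 large 2, ADR1 alone was called in that test. Leaf marker sums were 11400 to 15000 CPM over the 3 dwarf groups and 13700 to 28800 CPM over the 3 others, and 6 of the 8 leaf markers were called as lower in the pooled dwarf groups (list median -0.621). Of the floral markers, AP1, AP3 and PI were called there as higher and AG as lower, at sums of at most 6.55 CPM in any sample. The part of these markers in the pooled result was not tested.

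Within the transgenic T+ plants, 0 of the 10 genes were called between dwarf and normal plants by edgeR and 0 by DESeq2. Of all tested genes, edgeR called 15.0% (3255 genes), and DESeq2 called 4196 genes in all. In edgeR, 2 of the 10 had an unadjusted p under 0.05 (30.1% of all tested genes). ADR1 differed by 0.29 ± 0.14 (edgeR adjusted p = 0.176), ADR1-L1 by 0.12 ± 0.15 (0.635) and ADR1-L2 by 0.11 ± 0.17 (0.69). The differences of both ADR1-L genes were below 0 without T+ dwarf 3 (-0.05 and -0.09). Without T+ normal 1 the helpers differed by 0.31, 0.18 and 0.20 in the same order (edgeR adjusted p = 0.236, 0.521 and 0.521). A further test asked whether the dwarf difference itself differed between T+ and Gen2. By edgeR it called 0 of the 10 genes, against 0.654% of all tested genes (142 genes), with 4 at an unadjusted p under 0.05 (12.6% of all). By DESeq2 it also called 0 of the 10, and 646 genes in all. The T+ difference minus the Gen2 difference was -0.46 ± 0.19 for ADR1 (edgeR adjusted p = 0.303) and -0.64 ± 0.22 for ADR1-L2 (0.208). A smaller helper difference in T+ than in Gen2 is therefore not shown. Leaf marker sums were 11500 to 14900 CPM in T+ dwarf and 21100 to 28800 CPM in T+ normal, and 6 of the 8 were called as lower in T+ dwarf. Floral organ marker sums were 2.45 to 6.55 CPM in T+ dwarf and 1.51 to 2.22 CPM in T+ normal, with AP1, AP3 and PI called as higher in T+ dwarf and AG as lower.

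**Figure D3:**
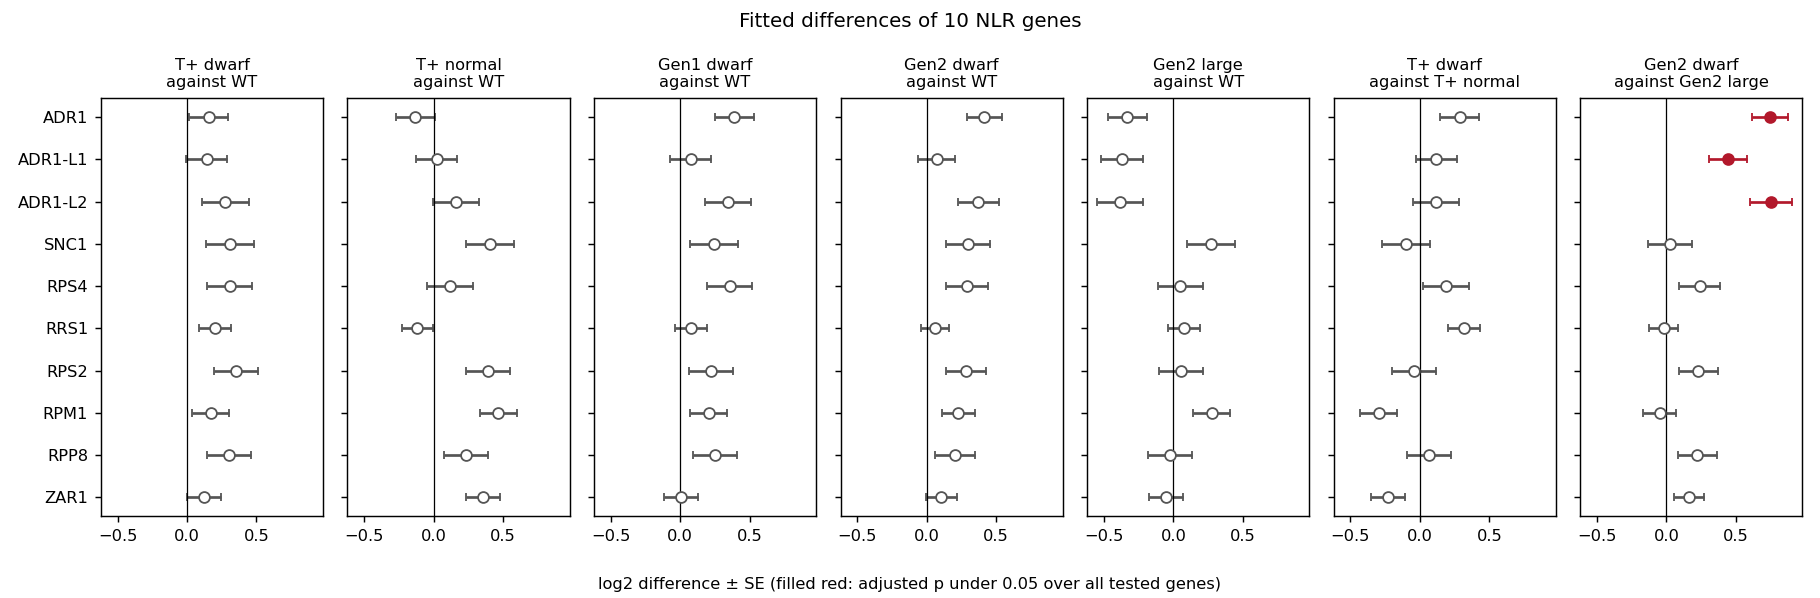
Fitted log2 differences ± SE of the 10 genes in 7 comparisons, with filled red points for an adjusted p under 0.05 over all tested genes. The filled points are ADR1, ADR1-L1 and ADR1-L2 in Gen2 dwarf against Gen2 large, and the 5 comparisons against WT share the same 3 WT samples.

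The bases upstream of the genes were read because the 3 helper genes moved together in Gen2. The WRKY transcription factors of the defence response bind the W-box, whose core is TTGAC. In the 250 bases before the annotated start, TTGAC was looked for on both strands. It stood in the windows of 3 of the 10 genes (SNC1, RRS1 and RPS2), and in 44.9% of the windows of 27443 protein-coding genes. RPS2 had 2 matches, both of the longer form TTGACC, which is found at least 2 times in 1.12% of windows. This was 1 of several counts made. The motif TTGACT stood in the windows of 2 of the 10 genes (19.1% of all windows) and CACGTG in 0 (6.49%). None of the 3 helper windows held TTGAC. They are shown beside that of RPS2, each in the direction of the gene and from RefSeq TAIR10.1, with TTGAC in capitals.
ADR1 (chr1:12168518-12168767, plus strand): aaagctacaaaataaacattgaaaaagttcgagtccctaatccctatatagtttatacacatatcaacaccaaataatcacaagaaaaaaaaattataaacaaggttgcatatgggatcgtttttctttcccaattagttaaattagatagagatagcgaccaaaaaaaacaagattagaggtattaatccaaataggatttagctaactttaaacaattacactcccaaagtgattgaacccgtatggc
ADR1-L1 (chr4:16056527-16056776, minus strand): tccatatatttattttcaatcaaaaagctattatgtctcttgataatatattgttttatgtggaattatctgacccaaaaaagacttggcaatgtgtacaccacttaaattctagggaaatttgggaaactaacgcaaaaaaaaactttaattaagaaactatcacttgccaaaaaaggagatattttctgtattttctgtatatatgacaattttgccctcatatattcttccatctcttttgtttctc
ADR1-L2 (chr5:1360339-1360588, plus strand): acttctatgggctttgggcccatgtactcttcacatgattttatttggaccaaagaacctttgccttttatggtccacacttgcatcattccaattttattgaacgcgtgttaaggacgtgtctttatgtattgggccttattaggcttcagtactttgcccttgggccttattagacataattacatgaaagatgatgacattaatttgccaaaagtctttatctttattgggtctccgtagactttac
RPS2 (chr4:13224088-13224337, plus strand): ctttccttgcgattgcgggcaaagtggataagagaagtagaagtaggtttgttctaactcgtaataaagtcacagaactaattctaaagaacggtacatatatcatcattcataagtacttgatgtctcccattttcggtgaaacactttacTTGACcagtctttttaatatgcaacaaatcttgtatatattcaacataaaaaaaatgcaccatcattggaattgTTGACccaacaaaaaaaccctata
A match is letters in a window and not a bound site, and these letters may lie outside the window in the helpers.

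None of the 3 TIR sensors was called between dwarf and large Gen2 plants. SNC1 (AT4G16890, chr4:9500271-9505972, minus strand, 6 exons), whose gain-of-function allele causes constant salicylic acid defence and small plants, was at 358, 454, 398, 453 and 433 CPM in Gen2 dwarf and at 399, 414 and 423 CPM in Gen2 large. All 3 large samples lay inside the dwarf range, and the log2 difference was 0.03 ± 0.16 (edgeR adjusted p = 0.933). SNC1 was at 387, 386 and 494 CPM in T+ dwarf, at 561, 429 and 368 CPM in T+ normal, at 440, 404 and 365 CPM in Gen1 dwarf and at 249, 372 and 402 CPM in WT. Its extremes were thus single samples, T+ normal 1 and WT 1. SNC1 belongs to a cluster of related genes on chromosome 4, and 3.05% of its 100-base exon windows occur elsewhere in the genome.

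RPS4 and RRS1 encode receptors that work as a pair: RRS1 carries a WRKY domain that effectors target, and RPS4 signals. Their genes lie head to head on chromosome 5. RPS4 (AT5G45250, chr5:18321764-18326175, minus strand, 5 exons) and RRS1 (AT5G45260, chr5:18326203-18332920, plus strand, 7 exons) are parted by only 27 bases between their annotated starts, shown here since both genes must be read outward from this stretch.
RPS4 to RRS1 (chr5:18326176-18326202, plus strand): tgagatttgagtggttgaatgtccaat
RPS4 was at 46.1, 54.1, 56.7, 59.2 and 55.1 CPM in Gen2 dwarf, at 47, 49.5 and 41.2 CPM in Gen2 large, at 65.1, 53.4 and 51.5 CPM in Gen1 dwarf, at 57.1, 53.1 and 54.2 CPM in T+ dwarf, at 59.8, 41.1 and 43.2 CPM in T+ normal and at 31.8, 47.2 and 54.1 CPM in WT. In Gen2 the log2 difference of RPS4 was 0.24 ± 0.15 (edgeR adjusted p = 0.292). Gen2 dwarf 1 was the lowest dwarf sample, and the ranges of dwarf and other groups overlapped. RRS1 was at 44.7, 48, 49.4, 50.5 and 45.3 CPM in Gen2 dwarf, at 47.5, 49.5 and 47.7 CPM in Gen2 large, at 47.5, 54 and 43.2 CPM in Gen1 dwarf and at 37.1, 47.9 and 52.1 CPM in WT. It had the narrowest range of the 10 genes, 1.49-fold over 20 samples. In T+ dwarf, RRS1 was at 54.6, 47.6 and 55.2 CPM, all above the 44.9, 43.1 and 38.3 CPM of T+ normal. A separation in this direction was seen for 17.3% of all tested genes, and the log2 difference of RRS1, 0.32 ± 0.11, missed the threshold (edgeR adjusted p = 0.0681). It was 0.37 without T+ normal 1 (edgeR adjusted p = 0.0831). In Gen2 the difference of RRS1 was -0.02 ± 0.10. The difference between these, 0.34 ± 0.15, was not called (edgeR adjusted p = 0.368). Over the 20 samples, the log2 levels of RPS4 and RRS1 had a Pearson r of 0.65, a description over samples that share libraries and groups.

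None of the 4 CC sensors was called in any comparison by edgeR in the fit of all 20 samples. RPS2 and RPM1 guard RIN4, the membrane protein that several bacterial effectors modify. RPS2 (AT4G26090, chr4:13224338-13227872, plus strand, 1 exon) was at 41.5, 45, 44.6, 53 and 43.6 CPM in Gen2 dwarf and at 34.5, 41 and 40.9 CPM in Gen2 large. These ranges did not overlap, as for the 3 helpers, which makes 4 of the 10 genes beside 13.9% of all tested genes. The log2 difference was 0.23 ± 0.14 and not called (edgeR adjusted p = 0.292). RPS2 stood at 42.8, 45 and 43.3 CPM in Gen1 dwarf, at 43.7, 40.9 and 58.5 CPM in T+ dwarf, at 63, 42.4 and 42 CPM in T+ normal and at 31, 41 and 40.2 CPM in WT. It overlaps a long noncoding RNA gene by 3285 bases and a protein-coding gene by 423 bases, both of the opposite strand. With a kit that does not mark strand, the reads of RPS2 and these genes cannot be told apart there.

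RPM1 (AT3G07040, chr3:2225855-2229555, minus strand, 1 exon) was at 19.8, 25.8, 23.1, 23.1 and 25.3 CPM in Gen2 dwarf and at 22.2, 25.5 and 24.9 CPM in Gen2 large (log2 difference -0.05 ± 0.12). It was highest in T+ normal, at 33.2, 26.3 and 23.4 CPM, all above the 17.6, 19.7 and 22.6 CPM of WT. That separation was seen for 7.09% of all tested genes. The log2 difference of RPM1, 0.47 ± 0.13, missed the threshold in edgeR (adjusted p = 0.0793) and passed it in DESeq2 (adjusted p = 0.0244). In edgeR it passed without T+ normal 3 (adjusted p = 0.0403) or WT 3 (0.0445), and without T+ normal 1, the library that stood apart, it came to 0.32 with an edgeR adjusted p of 0.394. Without WT 1 it was 0.40 (edgeR adjusted p = 0.155). RPM1 was at 22, 20.3 and 25.1 CPM in T+ dwarf and at 24.3, 23 and 21.8 CPM in Gen1 dwarf. The gene overlaps its neighbour AT3G07050 by 201 bases on the same strand.

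RPP8 (AT5G43470, chr5:17462547-17467448, minus strand, 4 exons) was at 217, 276, 270, 283 and 274 CPM in Gen2 dwarf and at 213, 251 and 215 CPM in Gen2 large. Gen2 dwarf 1 lay with the large samples and the other 4 above them, and the log2 difference was 0.22 ± 0.14 (edgeR adjusted p = 0.309). RPP8 belongs to a family with close copies, and 5.56% of its 100-base exon windows occur elsewhere, the highest share among the 10 genes. ZAR1 (AT3G50950, chr3:18935674-18938799, plus strand, 2 exons) was at 285, 307, 317, 323 and 310 CPM in Gen2 dwarf and at 245, 283 and 299 CPM in Gen2 large, with a log2 difference of 0.16 ± 0.11 (edgeR adjusted p = 0.341). In T+ normal it was at 412, 313 and 375 CPM and in WT at 251, 315 and 294 CPM, a difference of 0.36 ± 0.12 that edgeR did not call (adjusted p = 0.143) and DESeq2 did (adjusted p = 0.0441). It was 0.26 without T+ normal 1 and 0.28 without WT 1 (edgeR adjusted p = 0.517 and 0.269). An antisense RNA gene covers 2367 bases of the ZAR1 locus, and with a kit that does not mark strand the reads of the pair cannot be told apart.

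Against WT, none of the 10 genes was called in any of the 5 groups by edgeR. Few genes of any kind passed in these comparisons, namely 0.0507% in T+ dwarf, 1.34% in T+ normal, 2.01% in Gen1 dwarf, 0.0968% in Gen2 dwarf and 0.963% in Gen2 large. At an unadjusted p under 0.05 there were 1, 4, 2, 2 and 3 NLR genes in the same order, beside 11.9%, 15.4%, 17.1%, 13.1% and 15.1% of all tested genes. DESeq2 called RPM1 and ZAR1 in T+ normal and 0 in the other 4 groups. It also called more genes of any kind than edgeR. In the same order there were 120, 1166, 1135, 380 and 743 by DESeq2, against 11, 290, 437, 21 and 209 by edgeR. The fitted differences of all 10 genes were above 0 in T+ dwarf (median 0.239, against -0.0112 over all tested genes), in Gen1 dwarf (0.233 against 0.00122) and in Gen2 dwarf (0.256 against 0.00515). A positive difference was seen for 48.3%, 50.2% and 50.9% of all tested genes. These comparisons share the WT samples. Without WT 1 the members' medians fell to 0.108, 0.0777 and 0.0964, with 9, 7 and 8 of the 10 above 0. In Gen2 large, 5 of the 10 differences were above 0 and 5 below. The helpers were the lowest there, at -0.33 ± 0.14 for ADR1, -0.37 ± 0.15 for ADR1-L1 and -0.38 ± 0.17 for ADR1-L2 (edgeR adjusted p = 0.265, 0.245 and 0.279), and ADR1 in Gen2 large lay below all 3 WT samples. Without WT 1 they were -0.38, -0.51 and -0.53 (edgeR adjusted p = 0.236, 0.0817 and 0.129). Groups stood apart from WT without overlap for 0 of the 10 genes in T+ dwarf (6.92% of all tested genes in the higher direction), for RPS2 and RPM1 in T+ normal (7.09%), for ADR1 and RPS2 in Gen1 dwarf (12.0%) and for RPS2 in Gen2 dwarf (3.80%), all higher, and for ADR1 as lower in Gen2 large (10.5%).

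Gen1 dwarf was set against each of the other dwarf groups, and none of the 10 genes was called in either comparison, while T+ dwarf and Gen2 dwarf were not set against each other. Between Gen1 dwarf, which lacks the transgene, and T+ dwarf, which carries it, edgeR called 0 of the 10 genes and 0.00461% of all tested genes. The fitted differences ran from -0.13 to 0.24, and 0 of the 10 had an unadjusted p under 0.05, beside 4.85% of all. Between Gen2 dwarf and its parent generation Gen1 dwarf, edgeR called 0 of the 10 and 0.235% of all tested genes (51 genes, and 0 to 156 when 1 sample was left out), with differences from -0.06 to 0.10 and again 0 at an unadjusted p under 0.05, beside 9.22% of all. DESeq2 called 0 of the 10 in both, and 34 and 340 genes in all, in the same order. The SEs of the fitted differences, 0.10 to 0.17, leave room for differences of that size.

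Across samples, ADR1 and ADR1-L2 varied most by group among the 10 genes. Group membership accounted for 77.3% of the variance in log2 level of ADR1 and 67.2% of that of ADR1-L2, against a median of 41.6% over all tested genes. ZAR1 followed with 55.5%, ADR1-L1 with 50.4% and RPM1 with 47.4%, and the other 5 sensors lay between 31.4% (SNC1) and 38.8% (RRS1). The SD within groups ran from 0.135 (ZAR1) to 0.22 (SNC1) in log2 units, against a median of 0.221 over all tested genes. Over the 20 samples, Pearson's r of log2 CPM was 0.881 between ADR1-L1 and ADR1-L2, 0.855 between ADR1 and ADR1-L2 and 0.87 between SNC1 and RPM1. The lowest was -0.12, between ADR1 and RPM1, and the median over the 45 pairs was 0.568. After group means were subtracted the median was 0.661, so most pairs also moved together among samples of 1 group. These values are descriptions, since the samples share groups and libraries. They were not set beside those of other gene pairs, nor computed without T+ normal 1 or WT 1.

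**Figure D4:**
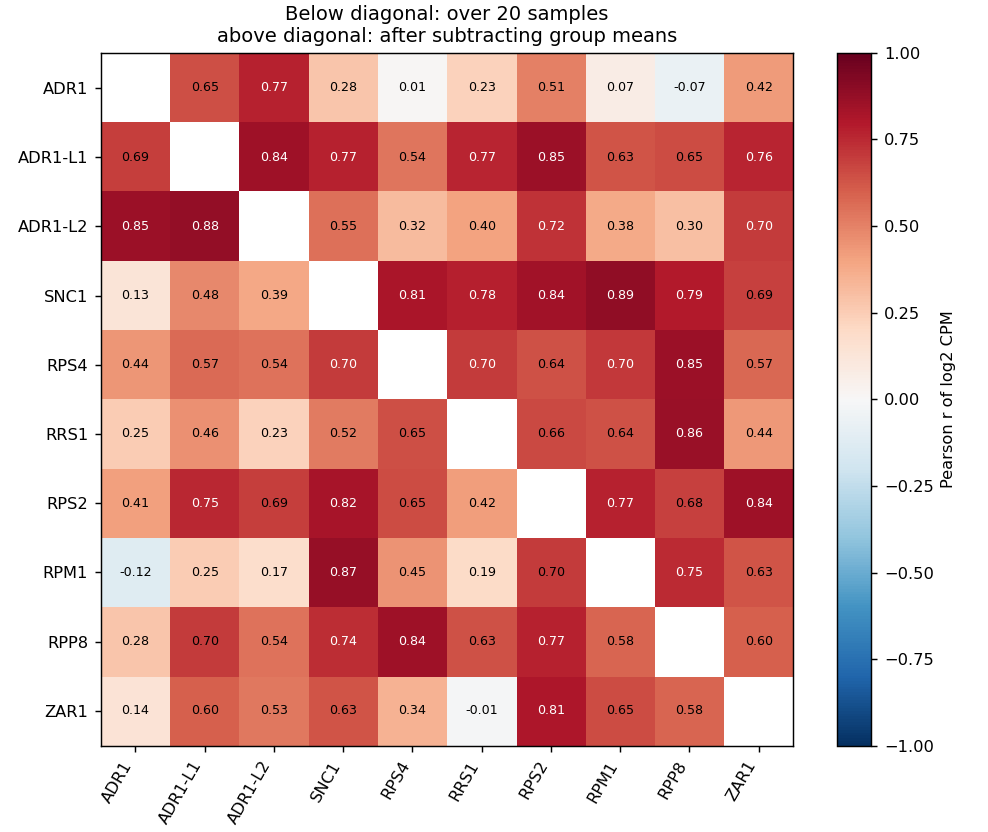
Pearson r of log2 CPM between the genes over 20 samples (below the diagonal) and after subtraction of group means (above), on a colour scale from -1 to 1. The 3 helper pairs lie between 0.694 and 0.881 below the diagonal, and ADR1 with RPM1 is lowest at -0.123.

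The gene most like each receptor, by Pearson r of log2 CPM over the 20 samples and all tested genes, was itself an annotated NLR gene for 2 of the 10. RPP8 was most like RPP5, a TIR sensor for downy mildew (r = 0.968), and RPM1 most like AT1G56520, annotated as a TIR-NBS-LRR protein (0.897). SNC1 was most like SNC4, annotated as suppressor of npr1-1 constitutive 4 (0.916), and RRS1 most like EDM2, a chromatin protein known to control NLR transcripts (0.906). ADR1 was most like S6K2, a serine/threonine kinase (0.92), and RPS2 most like AT1G16260, a wall-associated kinase (0.917). For ADR1-L1 the nearest was AT1G49050, an aspartyl protease (0.953), for ADR1-L2 AT3G48390, an MA3 domain protein (0.919), for RPS4 AT2G17110 (0.905) and for ZAR1 AT2G26190, a calmodulin-binding protein (0.873). The highest of 21703 values is high for most genes, so likeness alone sets no gene apart.

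Other genes of the NLR pathway were described from lists. Of 33 further NLR or related genes tested, 1 was called between Gen2 dwarf and Gen2 large, where 13.5% of all tested genes were called. Some of the 33 are annotated as TIR or TIR-NBS proteins, without the leucine-rich repeats. The called gene, AT5G41750, annotated as a TIR-NBS-LRR protein, was 0.69 ± 0.18 higher on the log2 scale (edgeR adjusted p = 0.0174). Its T+ difference minus its Gen2 difference was -1.24 ± 0.27 (edgeR adjusted p = 0.0411). The median of the 33 was 0.101, against 0.226 for the 10 genes and a median of 7.6e-05 over all tested genes. That count was 0 without any 1 of the Gen2 large samples and 3 without Gen2 dwarf 1. With the dwarf groups pooled, 6 of 33 were called, all higher, among them RLM1 (0.70 ± 0.25), RPP1 (0.34 ± 0.07) and AT1G56540 (0.33 ± 0.10), beside 17.8% of all tested genes called as higher. This count was 3 without T+ normal 3, Gen1 dwarf 1 or WT 1. ADR1-L3, the short relative of the helpers, did not pass the filter on low counts.

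Of 18 partners and downstream signalling genes, 4 were called in Gen2, all higher in dwarf plants, beside 13.5% of all tested genes called and 8.67% called as higher. APK2A, also named PBL2, the kinase whose modification activates ZAR1, was at 39.3, 39.6, 39.1, 51.7 and 41.2 CPM in Gen2 dwarf and at 17.9, 20.2 and 17.2 CPM in Gen2 large, a log2 difference of 1.19 ± 0.12 (edgeR adjusted p = 7.88e-05). HSP90.1, a chaperone of NLR proteins, differed by 1.04 ± 0.17, RIPK, a kinase that phosphorylates RIN4, by 0.68 ± 0.09 and PAD4 by 0.77 ± 0.23 (edgeR adjusted p = 0.000986, 0.000245 and 0.0349). HSP90.1 (1.21 ± 0.19) and RIPK (0.41 ± 0.10) were also called as higher in T+ dwarf than in T+ normal, beside 7.21% of all tested genes. With the dwarf groups pooled, 6 of the 18 were called, all higher, beside 17.8% of all tested genes called as higher. That count was 4 to 8 when 1 sample was left out. The T+ difference of APK2A minus its Gen2 difference was -0.85 ± 0.18 (edgeR adjusted p = 0.0394). Against WT, HSP90.1 (-0.77 ± 0.19) and RIPK (-0.51 ± 0.10) were called as lower in T+ normal, and APK2A (-0.67 ± 0.13) as lower in Gen2 large (edgeR adjusted p = 0.0462, 0.0184 and 0.0244). Of all tested genes, 0.802% were called as lower in T+ normal and 0.843% in Gen2 large. In T+ dwarf, Gen1 dwarf and Gen2 dwarf, edgeR called 0 of the 18 against WT. At an unadjusted p under 0.05 there were 3, 2 and 4 of the 18, beside 11.9%, 17.1% and 13.1% of all tested genes.

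Other well-known partners of the receptors were not called in Gen2. EDS1, the partner of the helpers, was at 82.3, 101, 84, 107 and 97.1 CPM in Gen2 dwarf and at 67.3, 69.8 and 68.1 CPM in Gen2 large, without overlap, but its difference of 0.46 ± 0.20 was not called (edgeR adjusted p = 0.13). SAG101, the EDS1 partner in the NRG1 branch, differed by 0.32 ± 0.12 (edgeR adjusted p = 0.0767) and RIN4 by 0.25 ± 0.11 (0.153). NDR1, which RPS2 and RPM1 signalling needs, differed by 0.07 ± 0.13 (0.747), and ZED1, the pseudokinase that ZAR1 holds, by -0.33 ± 0.15 (0.136).

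Of 22 genes that control NLR level or activity, 3 were called in Gen2, a share near the 13.5% of all tested genes, and all 3 were higher in dwarf plants: BAP1 (1.68 ± 0.53), which restrains SNC1-dependent cell death, SAR3, the nucleoporin also named MOS3 (0.37 ± 0.11), and MUSE3, which helps degrade SNC1 and RPS2 protein (0.37 ± 0.10). The list's median was 0.0263, and the count was 0 without Gen2 dwarf 4, Gen2 large 1 or Gen2 large 3, and 1 without Gen2 dwarf 3 or Gen2 large 2. CPR1, the F-box protein that marks SNC1 and RPS2 for degradation, differed by 0.01 ± 0.10 (edgeR adjusted p = 0.942), EDM2 by 0.02 ± 0.11 (0.931), and SRFR1, a repressor of RPS4 and SNC1 signalling, by 0.15 ± 0.08 (0.249). In T+ plants, MUSE3 (0.38 ± 0.11) and PRL1 (0.25 ± 0.08) were called as higher in dwarf plants, and AT1G14200, annotated as a RING/U-box protein, was called as lower (-0.93 ± 0.19), beside 15.0% of all tested genes called. Of these 3, 1 was called without T+ dwarf 1, T+ dwarf 3 or T+ normal 3. Against WT, AT1G14200 was called as higher in T+ normal (0.96 ± 0.19, edgeR adjusted p = 0.0189), beside 0.534% of all tested genes. In T+ dwarf against WT, 0 of the 22 were called, beside 0.0507% of all tested genes. With the dwarf groups pooled, 6 of the 22 were called, all higher, beside 17.8% of all tested genes called as higher. That count was 3 to 7 when 1 sample was left out.

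Of 10 salicylic acid genes, the output that helper NLRs feed, 9 were called in Gen2 and all 9 were higher in dwarf plants, with a list median of 1.38. Of all tested genes, 13.5% were called there and 8.67% were called as higher. FMO1, which makes the systemic signal N-hydroxypipecolic acid, was at 1.76, 4.43, 7.85, 11.2 and 8.57 CPM in Gen2 dwarf and at 0.821, 0.177 and 0.679 CPM in Gen2 large (3.60 ± 0.70, edgeR adjusted p = 0.00382). PR1 was at 76.4, 96.6, 318, 355 and 219 CPM against 86.5, 40.1 and 51.6 CPM, overlapping through Gen2 dwarf 1 (1.84 ± 0.55, edgeR adjusted p = 0.0361). ICS1, the synthase of the salicylic acid precursor, was at 25.8, 29, 35.7, 67.6 and 41.2 CPM against 22.9, 18.4 and 18.6 CPM (1.00 ± 0.32, edgeR adjusted p = 0.0466). The count of 9 fell to 5 without Gen2 dwarf 3, to 4 without Gen2 dwarf 4 and to 3 without any 1 of the Gen2 large samples. With the dwarf groups pooled, 8 of the 10 were called, all higher (list median 0.807), beside 17.8% of all tested genes called as higher. The pooled count was 5 to 10 when 1 sample was left out. In T+, 2 of the 10 were called as higher in dwarf plants, EDS5 (0.75 ± 0.22) and PR2 (1.1 ± 0.35), beside 7.21% of all tested genes, and 0 were called without T+ dwarf 1, T+ dwarf 3, T+ normal 1 or T+ normal 3. The T+ difference minus the Gen2 difference had a list median of -1.08. It was called for 0 of the 10 (lowest edgeR adjusted p = 0.105), beside 0.654% of all tested genes. At an unadjusted p under 0.05 there were 5 of the 10, beside 12.6% of all. A smaller salicylic acid difference in T+ than in Gen2 is therefore not shown.

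**Figure D5:**
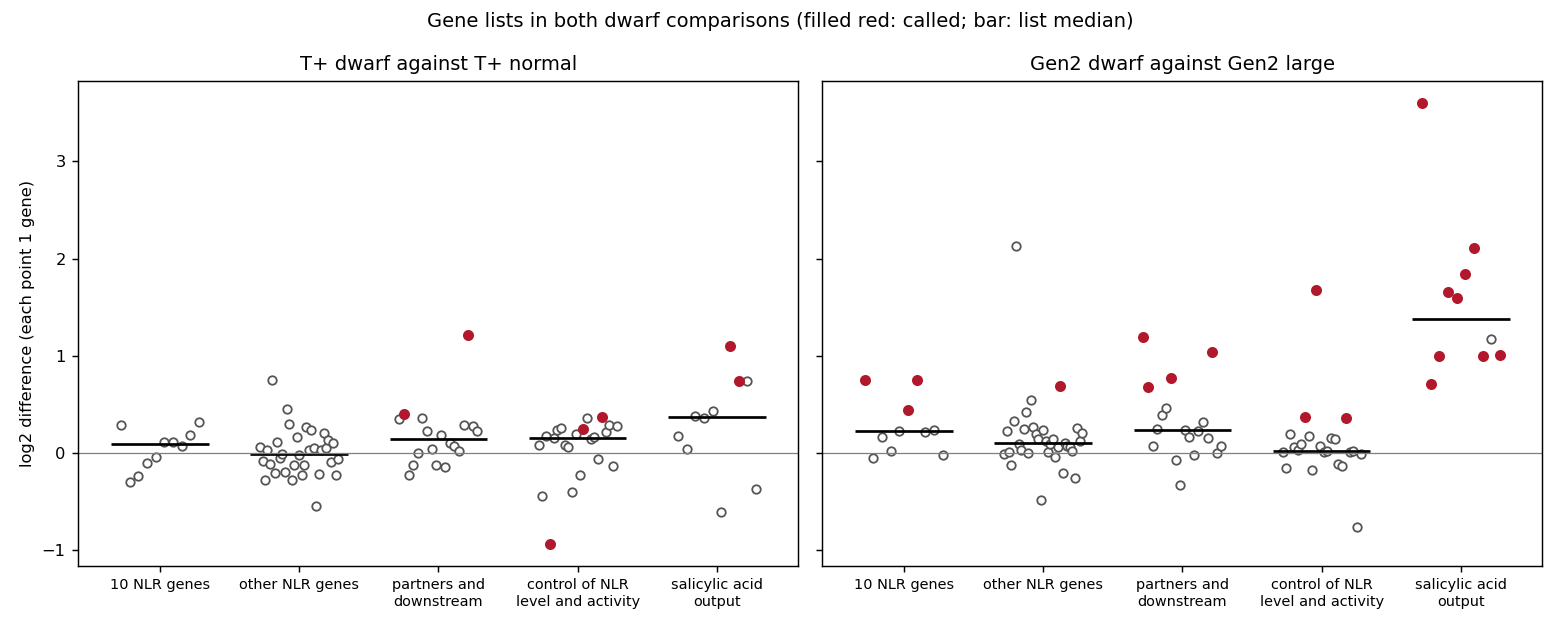
Log2 difference of every tested gene of 5 lists (points, filled red where called, bar at the list median) in T+ dwarf against T+ normal and in Gen2 dwarf against Gen2 large. In Gen2 the salicylic acid genes have a median of 1.38 and the 10 NLR genes of 0.226.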

How the data were processed

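RNA-seq of 20 samples in 6 groups was analysed. The authors deposited whole-number counts for each gene. Their notes on processing name Trim Galore 0.4.1, STAR 2.7.0a and the TAIR10 build, as listed in the submitters' processing notes, and no source used here states which program counted the reads or how it used strand. Reads without a gene (0.776 to 1.14% of gene counts) and ambiguous reads (0.264 to 0.36%) entered neither library sizes nor tests, and counts of reads aligned to several places are 0 in all samples. Replicates differed beyond counting noise (chi-square per gene 35.76 to 206).

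edgeR 4.0.16 in R 4.3.3 was used: TMM factors (0.91 to 1.05), filterByExpr at a minimum count of 10, a quasi-likelihood fit of all 20 samples by group (14 residual degrees of freedom), 12 tests, and Benjamini-Hochberg adjustment over 21703 genes at 0.05. The fit was tested on simulated counts. Alternatives were DESeq2 1.42.0, RLE scaling, no filter, only the groups compared, a replicate block, and each of the 20 samples left out. Pairing by replicate number was checked, and no block is used in the results given. Exon length, sequences and neighbours came from RefSeq TAIR10.1. The 10 genes, the lists and the comparisons were chosen with earlier results of these data known. Named in full were the 10 genes, and of each list at most 4 called members by size and a few partners fixed by name. The P-loop sequences of 2 of the 10 genes are not reported here.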

Additional observations from a re-analysis of the deposited data

Results flagged for a closer look

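The level of RPP8 in 1 Gen2 dwarf sample lay far from the other 4. Gen2 dwarf 1 was at 217 CPM and the others at 270 to 283 CPM, and the gap from the lowest to the next sample was 0.803 of the range of the group. Of the 10 genes tested this way in the 5 Gen2 dwarf samples, 1 was singled out, and chance singles out about 1 in 20 groups. Gen2 dwarf 1 was also the lowest of the 5 for ADR1-L1 and for every other sensor, among them SNC1 (358 CPM), RPS4 (46.1 CPM) and RPM1 (19.8 CPM).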

How the results depend on the processing

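Of 1470 differences of single genes refitted under an alternative, 9 became called and 18 lost their call. Another 1426 kept their direction and their side of the threshold, or were uncalled and changed sign by less than the main SE. The other 17 were uncalled and changed sign by at least that SE, and 0 called differences reversed. The count of NLR genes called in T+ normal against WT was 0, and 2 with DESeq2, with 0 to 1 when 1 sample was left out. Leaving out 1 sample gave 2 to 3 called genes in Gen2 dwarf against Gen2 large, 2 to 5 for the pooled dwarf groups and 1 to 2 for any difference. The correlation of same-numbered samples ran from -0.257 to 0.387 over 27 pairs. It was over 0.1 in 4 pairs, and 3 of these were among number 1 of Gen2 dwarf, Gen2 large and WT (0.387, 0.282 and 0.187). No comparison had every pair over 0.1 and the labels give the numbers no shared source, so they were not taken as pairs. With a replicate block, ADR1-L1 lost its call in Gen2 (edgeR adjusted p = 0.113), RPS4 lost its call in the pooled test (0.0981), and 3 of the 10 salicylic acid genes were called in Gen2. The number of all genes called moved by more than 1.5 times: leaving out 1 sample gave 4 to 207 against 11 in T+ dwarf against WT, 36 to 559 against 290 in T+ normal against WT, 71 to 681 against 437 in Gen1 dwarf against WT, 8 to 75 against 21 in Gen2 dwarf against WT, 10 to 326 against 209 in Gen2 large against WT, 1927 to 2653 against 3255 in T+ dwarf against T+ normal, 1186 to 2988 against 2920 in Gen2 dwarf against Gen2 large, 16 to 291 against 142 for the difference between both dwarf effects, 1 to 10 against 1 in Gen1 dwarf against T+ dwarf, and 0 to 156 against 51 in Gen2 dwarf against Gen1 dwarf. With DESeq2 the same counts came to 120, 1166, 1135, 380, 743, 4196, 4091, 646, 34 and 340. The cause was not tested. Each of the 10 NLR genes had at least 1141 counts in every sample.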
